A study of Mus musculus with 15 samples.

Results

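The 7 mRNAs described here encode proteins of the endoplasmic reticulum (ER) and Golgi and molecular chaperones. They are Acbd3, Canx, Hsp90b1, Pdia4, Hspa5, Hsp90ab1 and Ktn1, 7 of the 55490 genes of the deposited table, where 5763 genes were detected at all. They were taken by symbol and chosen by their counts in all 15 libraries, several being abundant in some libraries and listed at 0 in others. Their levels and their presence or absence are therefore a description, and no test of them supports the choice.

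Ribosome-bound RNA fragments were sequenced from mouse eggs and embryos to ask which maternal mRNAs are translated with the help of eIF4E1b, a germ-cell relative of the cap-binding protein eIF4E. All libraries came from eggs or embryos of B6D2F1 females that carried an HA tag on the ribosomal protein Rpl22, and that were either Eif4e1b Het (heterozygous) or Eif4e1b KO (knockout). The groups were M2 eggs, arrested at metaphase II of meiosis (2 Het and 2 KO libraries), PN5 zygotes, at a late pronuclear stage (3 Het and 3 KO), and early 2-cell embryos (3 Het and 2 KO), each library a pool of about 200 eggs or zygotes or about 100 embryos. The labels give the genotype of the mother only, no age, and not whether pools share animals. The p-values thus cover only the spread between pools, which may be technical. Eif4e1b itself was listed at 0 in all 15 libraries and so does not check the genotype labels. In what follows, replicate numbers are those of the labels and have no order.

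Proteins that enter the secretory pathway are folded in the ER. Hspa5 (BiP) and Hsp90b1 (Grp94) are chaperones of the ER lumen, Pdia4 is a disulfide isomerase there, and Canx (calnexin) is a membrane chaperone that holds newly made glycoproteins. Ktn1 (kinectin) is an ER membrane protein that binds the motor kinesin, Acbd3 is a Golgi scaffold that recruits the lipid kinase Pi4kb, and Hsp90ab1 is the constitutive cytosolic Hsp90. In eggs the secretory pathway supplies the proteins of the zona pellucida and of the cortical granules. When unfolded proteins build up in the ER, the factors Atf6 and Xbp1 raise transcription of many ER chaperone genes through a promoter sequence called the ER stress response element.

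That element is shown as a description. The choice of genes did not use promoter sequences, but it took in ER chaperone genes, the kind this element serves. Its presence in them therefore supports nothing about the choice. RefSeq promoters of GRCm38.p6, from 250 bases before to 50 bases after the gene start, were at hand for Canx, Hsp90b1, Pdia4, Hspa5 and Ktn1, 5 of the 7 genes. The letters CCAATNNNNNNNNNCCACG, searched on both strands, were in 39 of 32851 promoters (0.119%). Among the 5 genes they were in the promoters of Hspa5, Canx and Hsp90b1, the last with 2 copies. The 19-base matches are printed 5′ to 3′ on the strand that holds the motif, with the fixed letters in capitals and the 9-base spacer in lower case.
Hspa5: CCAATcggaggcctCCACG
Canx: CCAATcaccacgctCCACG
Hsp90b1, gene strand: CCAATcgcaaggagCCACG
Hsp90b1, opposite strand: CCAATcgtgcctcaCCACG
The matches lie at chr2:34772025-34772043 for Hspa5 (plus-strand gene), at chr11:50325800-50325818 for Canx (minus-strand gene), and at chr10:86705638-86705656 and chr10:86705533-86705551 for Hsp90b1 (minus-strand gene). Pdia4 held the match without its last letter, CCAATNNNNNNNNNCCAC, on the strand opposite to the gene at chr6:47813602-47813619, as 120 of the 32851 promoters did (0.365%, the full matches included).
Pdia4: CCAATcacgggctgCCAC
Neither form was found in the 2 Ktn1 promoters. A match is a string of letters and not a shown binding site, and the libraries measured ribosome-bound RNA, not transcription. Canx and Hspa5 each had counts in 5 libraries, with 2 in common. The single library with Hsp90b1 counts, M2 Het replicate 2, also held 783 Canx counts and none for Hspa5.

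**Figure D1:**
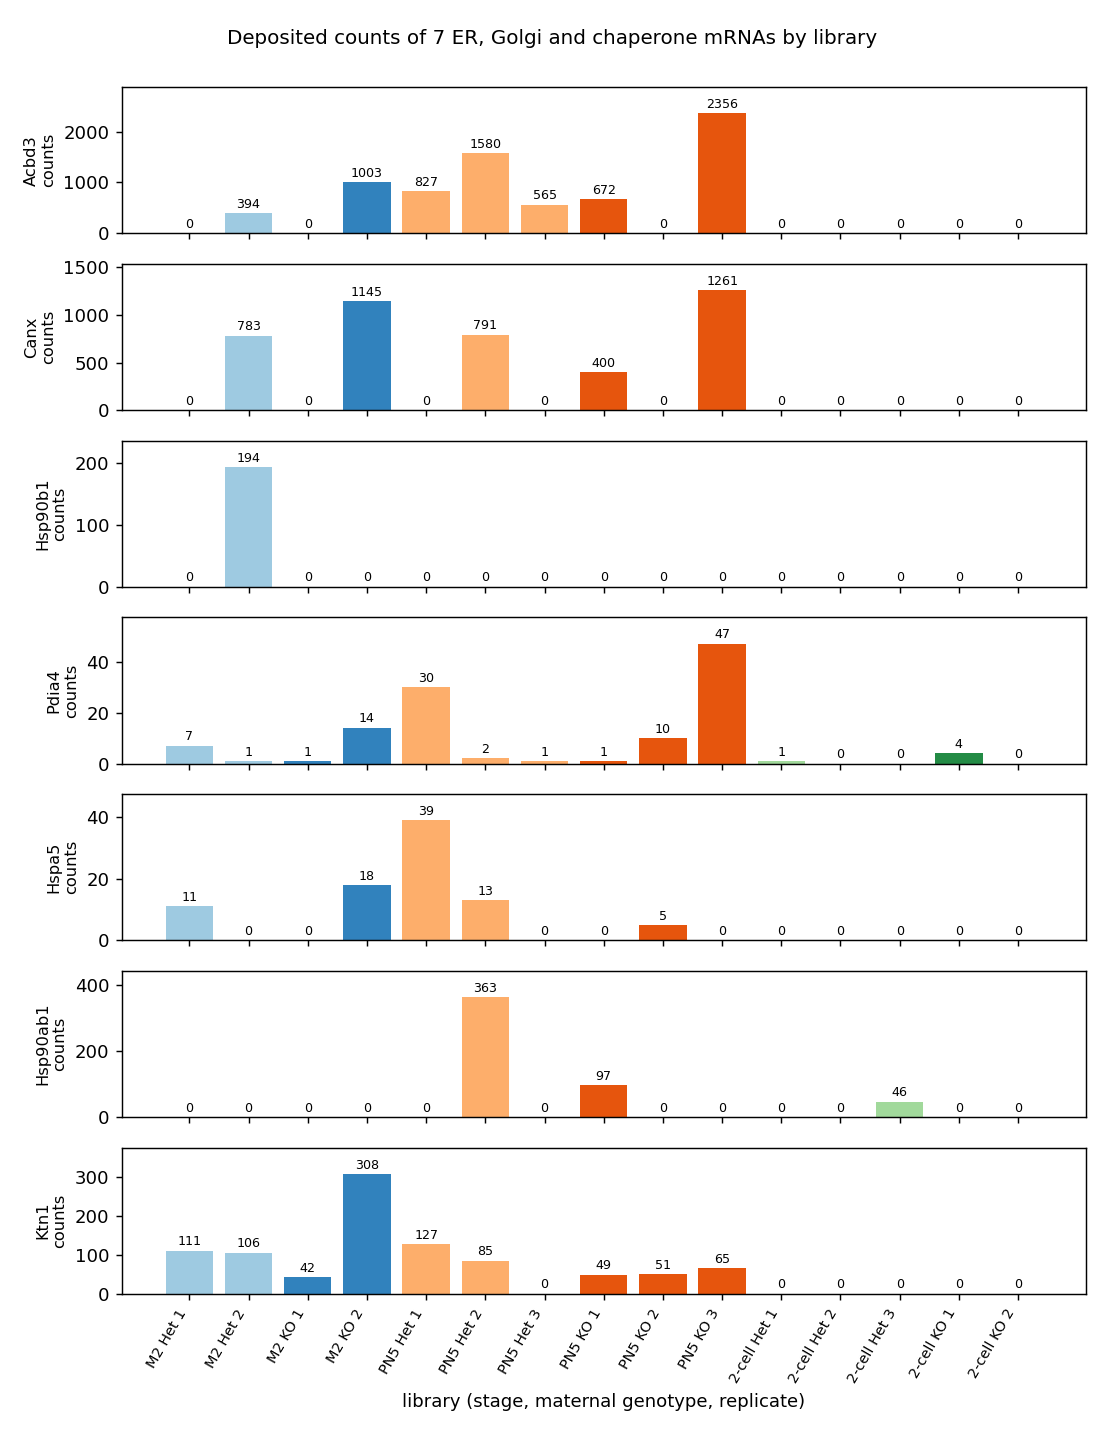
Deposited counts (y axis, linear from 0, a scale of its own for each gene) of the 7 mRNAs in each of the 15 libraries (x axis), coloured by stage and maternal genotype, with the count above each bar. Acbd3 and Canx alternate between high counts and 0, Pdia4 is low in most libraries, and the 5 early 2-cell libraries are at or near 0 for every gene apart from 46 counts of Hsp90ab1 in 1 Het library.

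Library totals ran from 93222 to 1201146 counts and protein-coding counts from 1059 to 47399. All 5 early 2-cell libraries had totals of 170753 or less and protein-coding counts of 7795 or less. The 7 mRNAs together had 13626 counts, 5.33% of all protein-coding counts, and Acbd3 and Canx made up 86.4% of these. The labelled cells could be checked only weakly. A count was found for 11 of 21 egg and early embryo markers, led by Npm2 with 351 counts in 2 libraries, while the zona pellucida genes Zp1, Zp2 and Zp3 were listed at 0 throughout. Their sum took 0% to 1.09% of protein-coding counts. Cumulus and granulosa markers (7 of 16 with a count, mostly the steroid-producing enzyme Cyp11a1) took 0% to 0.888%, with Star, Amh, Inha and Fshr at 0, and blood, immune and sperm markers had 1 count.

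Acbd3 (ENSMUSG00000026499, chromosome 1, 180726043 to 180754204 on GRCm38) had 7397 counts and was the fifth of all protein-coding genes by total count, which is not corrected for transcript length. In M2 eggs it had 0 and 394 counts in the Het libraries and 0 and 1003 in the KO libraries. In PN5 zygotes it had 827, 1580 and 565 counts in Het and 672, 0 and 2356 in KO. In early 2-cell embryos it was listed at 0 in all 5 libraries. Both genotypes therefore held a library with many counts and a library with none in the egg, and the zygote groups overlapped through the KO library at 0.

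In CPM (counts scaled to library size with TMM factors), Acbd3 was at 738 and 709 in the egg libraries that held it. These near-equal values depend on TMM factors of 0.514 and 1.33. By library total, M2 Het replicate 2 held 394 of 1039092 counts and M2 KO replicate 2 held 1003 of 1066196. In the PN5 Het libraries Acbd3 was at 726, 1932 and 1926 CPM, and at 1563 and 2282 in the 2 PN5 KO libraries that held it. TMM factors ran from 0.390 to 2.87 over the 15 libraries. Where it was present it took 1.77% to 6.56% of the protein-coding counts, the highest share in PN5 Het replicate 3. A 0 allowed at most 4.22 CPM in M2 Het replicate 1 and 5.07 in PN5 KO replicate 2, by a limit of 3 counts per library that covers counting error only. These 2 libraries were thus far below those of the same stage and genotype that held the mRNA.

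Presence of Acbd3 followed the total size of the library. The 7 libraries with Acbd3 counts had totals from 609142 to 1201146, and the 8 without had totals from 93222 to 409584, with no overlap. Protein-coding counts did not separate them in this way. Those libraries had 8614 to 47399 protein-coding counts with Acbd3 and 1059 to 20907 without it. From its total and the protein-coding depth of each library, Acbd3 would have had 605 counts in M2 Het replicate 1, 342 in PN5 KO replicate 2 and 173 in M2 KO replicate 1, where it was listed at 0. Of the 311 protein-coding genes with at least 100 counts, 21 (6.75%), Acbd3 among them, were present in libraries that all had larger totals than those without, and 1 other, Ice1, had counts in exactly the same 7 libraries. The part of library size in the presence of Acbd3 was not tested.

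**Figure D2:**
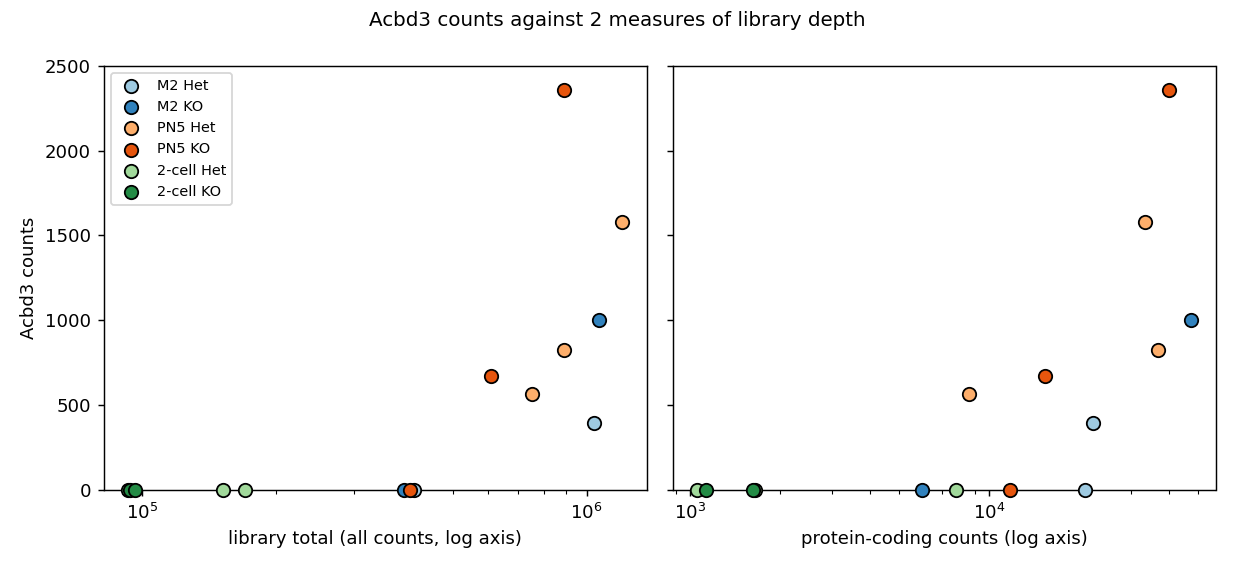
Acbd3 counts (y axis, linear from 0) of the 15 libraries against the library total (left, log axis) and against protein-coding counts (right, log axis), each point a library coloured by stage and maternal genotype. On the left every library above 609142 counts holds Acbd3 and every library below 409584 is at 0, while on the right the libraries at 0 reach 20907 protein-coding counts and those with Acbd3 start at 8614.

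Canx (ENSMUSG00000020368, chromosome 11, 50293957 to 50325673) showed the same alternation in fewer libraries. It had 0 and 783 counts in M2 Het, 0 and 1145 in M2 KO, 0, 791 and 0 in PN5 Het, 400, 0 and 1261 in PN5 KO, and 0 in all early 2-cell libraries. Every group of eggs and zygotes held libraries of both kinds, so the genotypes overlapped at both stages. In the 5 libraries that held it, Canx ran from 810 to 1466 CPM and took 2.38% to 3.52% of the protein-coding counts.

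All 5 of these libraries also held Acbd3, and 2 with Acbd3 lacked Canx, PN5 Het replicates 1 and 3. Library size did not separate the presence of Canx: PN5 Het replicate 1 had a total of 890515 and no Canx count, where 632 were expected from its protein-coding depth. No other gene with at least 100 counts was present in exactly these 5 libraries. The genes whose levels ran most like Canx over the 15 libraries were Zrsr2, a splicing factor (Spearman 0.87), and Ice1, a subunit of the little elongation complex (0.85). For Acbd3 they were Ice1 (0.94) and Rbm27 (0.91), where the median over the 420 genes compared was 0.20. Libraries share depth and many zeros across genes, so these values only describe.

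Ktn1 (ENSMUSG00000021843, chromosome 14, 47648274 to 47736564) had the lowest spread between libraries of the 6 mRNAs tested. It had 111 and 106 counts in M2 Het, 42 and 308 in M2 KO, 127, 85 and 0 in PN5 Het, 49, 51 and 65 in PN5 KO, and 0 in early 2-cell embryos. Only PN5 Het replicate 3, with 8614 protein-coding counts, lacked it among the eggs and zygotes. On the CPM scale the M2 libraries lay between 156 and 218, with Het at 177 ± 30.0 (SD, n = 2) and KO at 207 ± 15.0 (n = 2), and the 2 genotypes overlapped. PN5 zygotes were lower, at 71.8 ± 62.3 in Het (n = 3) and 87.7 ± 25.5 in KO (n = 3), and again overlapped. Its edgeR dispersion, the squared biological coefficient of variation, was 1.05, below the median of 1.84 over 425 protein-coding genes tested. Those of Canx and Hsp90ab1 were 6.04 and 6.62, among the most variable 4.71% and 2.35%. The levels most like Ktn1 were those of Prpf38b (Spearman 0.91) and Bod1l (0.89).

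The ER lumenal chaperones had few counts. Hspa5 (ENSMUSG00000026864, chromosome 2, 34772090 to 34776529) had 86 in all, with 11 and 0 in M2 Het, 0 and 18 in M2 KO, 39, 13 and 0 in PN5 Het, and 0, 5 and 0 in PN5 KO. In PN5 KO replicate 3 it was at 0 although this library was among the deepest, with 39997 protein-coding counts. Usp8 ran most like it (Spearman 0.94), with counts in the same 5 libraries, followed by Myh9 (0.91).

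Pdia4 (ENSMUSG00000025823, chromosome 6, 47796141 to 47813512) was found in 12 libraries, the most of the 7, but at 1 to 47 counts. It had 7 and 1 in M2 Het, 1 and 14 in M2 KO, 30, 2 and 1 in PN5 Het, and 1, 10 and 47 in PN5 KO. Among the 7 it was also the only ER mRNA seen in early 2-cell embryos, with 1 count in Het replicate 1 and 4 in KO replicate 1. The PN5 genotypes overlapped, at 2.45 to 26.3 CPM in Het and 2.33 to 45.5 in KO. Dsp (Spearman 0.81) and Srsf11 (0.77) ran most like it.

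Hsp90b1 (ENSMUSG00000020048, chromosome 10, 86690841 to 86705444) had 194 counts, all in M2 Het replicate 2. There it was at 363 CPM and took 0.872% of the protein-coding counts. The other 14 libraries were listed at 0, including M2 KO replicate 2, PN5 Het replicate 1 and PN5 KO replicate 3, where 36.0, 28.0 and 30.3 counts were expected from depth. It did not pass the low-count filter and was not tested, since a count in 1 library says nothing about genotype or stage.

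Hsp90ab1 (ENSMUSG00000023944, chromosome 17, 45567778 to 45573261) had counts in 1 library each of PN5 Het (363), PN5 KO (97) and early 2-cell Het (46). It was at 0 in all 4 egg libraries, where 11.9 to 93.8 counts were expected from depth. The 46 counts, in early 2-cell Het replicate 3, made it the only one of the 7 with more than 4 counts after the first cleavage. Its inducible paralog Hsp90aa1 on chromosome 12 had counts in other libraries. It had 48 and 110 in M2 Het, 18 and 184 in M2 KO, 114, 26 and 0 in PN5 Het, and 0, 38 and 98 in PN5 KO, and none in early 2-cell embryos. Of the 10 libraries with either gene, 1 held both, PN5 Het replicate 2. Reads common to both paralogs could be assigned to either, and the sources used here do not say how the deposited counts treat them. Nop14 (Spearman 0.84) and Supt5 (0.69) ran most like Hsp90ab1, on 2 and 3 libraries with counts.

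**Figure D3:**
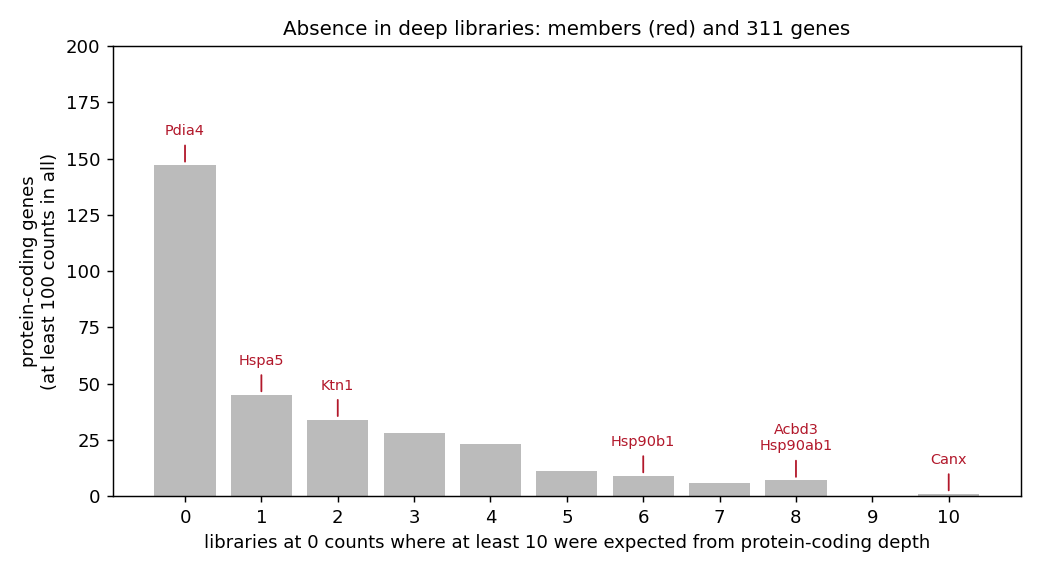
Number of protein-coding genes (y axis, the 311 with at least 100 counts in all) by how many libraries listed them at 0 where at least 10 counts were expected from protein-coding depth (x axis). Red names mark the 7 mRNAs at their own numbers, from 0 for Pdia4 to 10 for Canx (Hspa5, with 86 counts, is not among the 311). Genes with more counts have more libraries in which at least 10 were expected.

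Absence from deep libraries differed among the 7, which describes how they were chosen. A library counted as deep for a gene when its share of all protein-coding counts gave an expected count of at least 10. Canx was listed at 0 in 10 such libraries, Acbd3 and Hsp90ab1 in 8 each and Hsp90b1 in 6. The median over the 311 genes was 1, and 147 of them (47.3%) were never at 0 in a deep library. A gene with more counts has more deep libraries, so these numbers do not compare genes of unlike totals. For Canx and Acbd3 every library was deep, with expected counts of at least 18.1 and 30.6. Pdia4, with 119 counts in all, had an expected count of 22.1 at most. Only Canx reached 10, and 8 genes (2.57%), Acbd3, Canx and Hsp90ab1 among them, reached 8 or more. Ktn1 had 2, Hspa5 had 1 and Pdia4 had 0. The place of Ktn1 depended on the measure of depth. With library totals in place of protein-coding counts it was at 0 in 6 deep libraries, as was Hsp90b1, a number that 12.2% of the genes reached, while the other 6 mRNAs kept their numbers.

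Loss of maternal Eif4e1b was compared with Het within each stage by edgeR's quasi-likelihood test, fitted to all 15 libraries and 495 genes. The filter left 6 of the 7 mRNAs, all but Hsp90b1. None was called at any of the 3 stages, where 0% of all genes tested were called in each. At an unadjusted p under 0.05 there were 0 of the 6 at each stage, beside 6 (1.21%), 35 (7.07%) and 25 (5.05%) of the 495 genes. DESeq2 called none of them either, where it called 0.431% of genes in M2 eggs, 0.431% in PN5 zygotes and 0.862% in early 2-cell embryos. The median log2 fold change of the 6 was -0.02 for M2 eggs, 0.01 for PN5 and 0 for the early 2-cell stage, beside -0.02, 0 and 0 over all 495 genes. On the CPM scale the genotypes overlapped for all 7 mRNAs at every stage. Of all genes tested, 10.5% lay wholly higher and 12.9% wholly lower in KO M2 eggs on that scale. These shares were 1.82% and 4.04% at PN5, and 4.85% and 5.25% at the early 2-cell stage. As a share of protein-coding counts, Ktn1 lay wholly higher in KO M2 eggs (0.700% and 0.650%) than in Het (0.531% and 0.476%). How many genes did so on that scale was not counted. With 2 or 3 libraries a group and this spread, the overlap is no sign that the genotypes are alike. Counts were simulated with the trended dispersion of these data. The PN5 comparison called 57.8% of 102 genes changed by 6 on the log2 scale and 9.18% of 98 changed by 3. The other 295 of the 495 genes were unchanged. So many changed genes make the adjustment of p more lenient than few would. The trended dispersion is 1.30 for Acbd3, 1.32 for Canx, 1.38 for Hsp90ab1 and 2.80 for Hspa5. Their own dispersions are 3.38, 6.04, 6.62 and 4.09, so these shares are likely too high for the 4 mRNAs, whose own dispersions were not simulated. The KO effect was also not called to differ between M2 eggs and PN5 zygotes or between PN5 zygotes and early 2-cell embryos for any of the 6, and 0% of genes were called in either.

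From the M2 egg to the PN5 zygote, Ktn1 lay lower in every library on the CPM scale, in both genotypes. In Het the 3 PN5 libraries (111, 104 and 0 CPM) lay below both M2 libraries (156 and 199 CPM), a log2 fold change of -1.29 with an adjusted p of 0.996 by edgeR, where 9.9% of genes lay wholly lower. In KO the PN5 libraries (114, 86.1 and 62.9 CPM) lay below the M2 libraries (197 and 218 CPM), a log2 fold change of -1.24 with an adjusted p of 1 by edgeR, where 4.24% of genes did. The separation depended on the scaling. As a share of protein-coding counts it held in both genotypes, but by library total the stages overlapped in both. In Het, PN5 replicate 1 held 127 Ktn1 counts of 890515 and M2 replicate 2 held 106 of 1039092. In KO, PN5 replicate 2 held 51 of 401550 and M2 replicate 1 held 42 of 388676. The size of both differences also moved with the fit. In Het the log2 fold change of Ktn1 was -2.42 with limma-voom and -0.72 without PN5 Het replicate 3, the library at 0, and in KO it was -0.33 with the replicate block. Neither difference passed the test, and 0% of all genes were called in either comparison. In Het 0 of the 6 and 3.43% of genes had an unadjusted p under 0.05. In CPM the other mRNAs overlapped between these stages, where 6.67% of genes in Het and 3.23% in KO lay wholly higher in zygotes. DESeq2 called none of the 6, and 0.862% of genes in Het and 0.216% in KO. Acbd3 came near to separating in Het, where 1 of the 3 PN5 libraries, at 726 CPM, lay below the M2 library at 738 CPM. On other scalings it did separate. As a share of protein-coding counts, PN5 Het (2.24%, 4.76% and 6.56%) lay wholly above M2 Het (0% and 1.77%). By library total it did too, with 565 of 752679 counts in the lowest PN5 Het library and 394 of 1039092 in M2 Het replicate 2. How many genes did so on these scalings was not counted. Hsp90ab1 was at 0 in all M2 libraries and in 2 of 3 PN5 libraries of each genotype.

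In early 2-cell embryos 5 of the 7 mRNAs were listed at 0 in every library. These were Acbd3, Canx, Hsp90b1, Hspa5 and Ktn1. In Het, the 3 PN5 libraries of Acbd3 (1528 ± 695 CPM, SD, n = 3) all lay above the early 2-cell libraries, and 15.6% of genes lay wholly lower there. The adjusted p by edgeR was 0.183. In CPM the mean was at least 354-fold higher, by a limit of 3 counts pooled over the 3 early 2-cell libraries. That limit, 4.32 CPM, depends on the TMM factors, with 2.87 for early 2-cell Het replicate 3. In replicates 1, 2 and 3 alone, 3 counts were 29.3, 29.5 and 6.12 CPM. The fold was not worked out on other scalings. In KO, Ktn1 was at 87.7 ± 25.5 CPM in the 3 PN5 libraries and at 0 in both early 2-cell libraries. It was at least 7.49-fold lower by such a pooled limit on the CPM scale. There 16.6% of genes lay wholly lower, and the adjusted p of Ktn1 by edgeR was 0.543. No mRNA of the 6 was called in either genotype, where 0% of all genes were called, and in both genotypes Acbd3 and Ktn1 had an unadjusted p under 0.05, as 19.6% of genes in Het and 8.69% in KO did. All 6 had a lower fitted level in early 2-cell embryos in both genotypes, and none lay wholly higher there, as 3.03% of genes in Het and 4.24% in KO did. How many of all genes had a lower fitted level was not counted. The median log2 fold change of the 6 was -7.26 in Het and -8.46 in KO, beside -1.90 and -1.60 over all 495 genes. They were chosen by their counts in these libraries, zeros included, so this gap describes the choice. These fitted values also depend on the prior count for groups at 0.

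limma-voom called none of the 6 in Het, and 2.22% of genes. DESeq2 called 3 of the 6 lower in early 2-cell Het, Canx, Acbd3 and Ktn1, where it called 11.9% of the 336 genes to which it gave an adjusted p. In KO it called Canx, where it called 6.19% of 210. For Acbd3 in Het the DESeq2 adjusted p was 0.0400, the lowest over the alternatives, which reached 1. For Canx in Het it was 0.000144, beside 0.266 in edgeR, and without PN5 Het replicate 2, the only PN5 Het library with Canx, both groups were at 0. In pools of about 100 embryos against about 200 zygotes, fewer cells and less RNA per cell cannot be told apart, and the part of the lower depth of the early 2-cell libraries was not tested. For Canx, 18.1 to 133 counts were expected in early 2-cell libraries from their protein-coding depth, for Acbd3 30.6 to 225, and for Ktn1 3.91 to 28.8. The comparisons of stages share the PN5 libraries and are not independent.

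**Figure D4:**
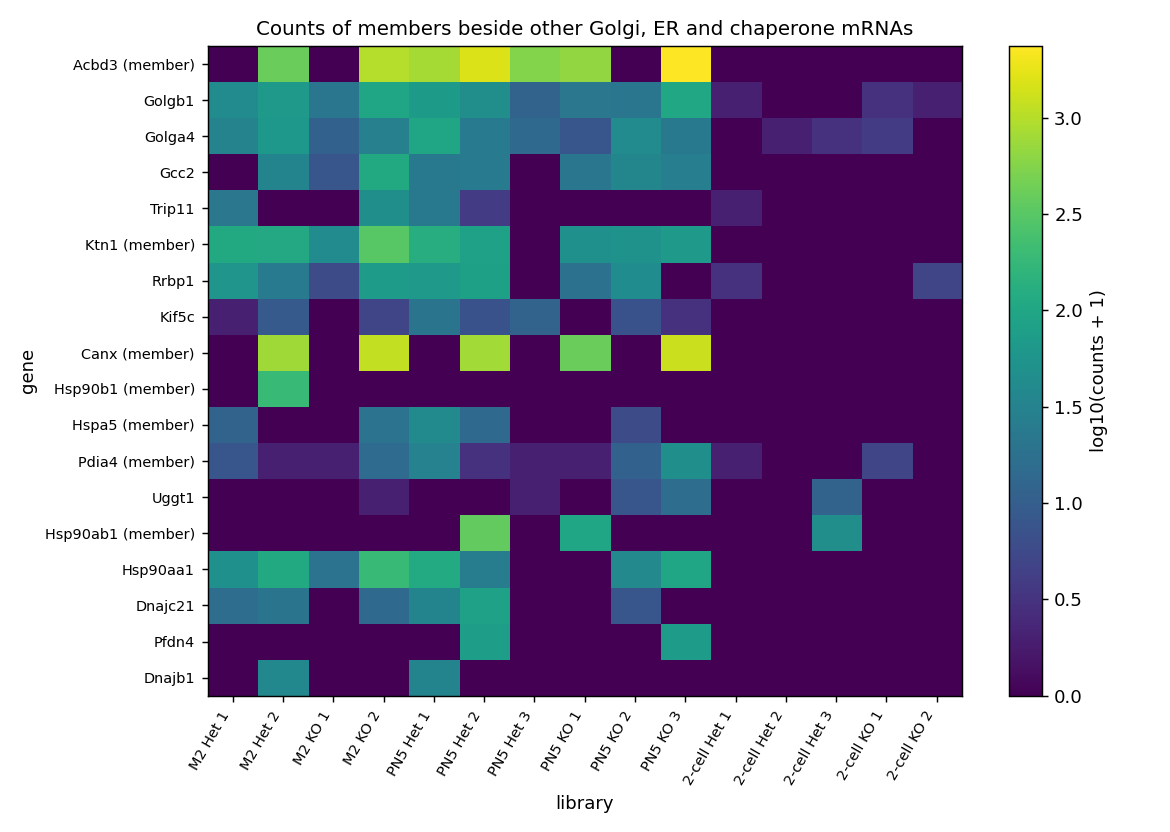
Counts (colour, log10 of counts plus 1) of the 7 mRNAs, marked as members, and of other Golgi, ER membrane, ER lumenal and chaperone mRNAs (rows) in the 15 libraries (columns). Golgb1 and Golga4 are present in every egg and zygote library, Acbd3 and Canx alternate between bright and dark cells, and the 5 early 2-cell columns are dark for nearly all genes.

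Many other mRNAs of the same pathways had no count, in data where 5763 of 55490 genes had a count at all. The share of protein-coding genes with a count in any library was not worked out. The numbers below therefore do not set these pathways apart from other genes. The Golgi list of matrix proteins, golgins and Acbd3 partners had counts for 19 of 39 genes. Golgb1 (giantin), which binds Acbd3, had 495 counts in 13 libraries and the trans-Golgi golgin Golga4 had 340 in 13, both with counts in all 10 libraries of eggs and zygotes, unlike Acbd3. In M2 eggs Golgb1 was at 89.5 ± 43.0 CPM in Het and 81.5 ± 17.2 in KO (SD, n = 2 each). In PN5 zygotes it was at 50.4 ± 11.4 in Het and 60.8 ± 34.6 in KO (n = 3 each), and its dispersion of 0.604 was at or below that of 98.1% of the protein-coding genes tested. Gcc2 had 277 counts in 8 libraries and Trip11 had 94 in 5. Pi4kb, the kinase that Acbd3 recruits, named after its values were seen, was listed at 0.

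The ER lumenal folding list held Canx, Hsp90b1, Pdia4 and Hspa5, which had 4779 of its 4835 counts. Of its other 33 genes 6 had a count. The highest were the glycoprotein folding sensor Uggt1 with 35 counts in 5 libraries, Erp29 with 8 and the isomerase Pdia3 and the selenoprotein Selenof with 5 each. Calr (calreticulin), the soluble counterpart of Canx, was listed at 0 in all libraries and was named after its values were seen. Among the 25 genes for ER membrane shape and kinesin anchoring, 7 had a count. Rrbp1, the ribosome-binding sheet protein related in function to Ktn1, had 368 counts in 10 libraries, and like Ktn1 was at 0 in PN5 Het replicate 3, though also in PN5 KO replicate 3. The neuronal kinesin heavy chain Kif5c had 57 in 8, Atl1 had 9 and Vapb had 7.

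ER stress sensors and degradation factors had counts for 8 of 31 genes, led by Ubxn4 (171 counts in 3 libraries), Ppp1r15a (33), the sensor kinase Eif2ak3 (19) and Atf6 (16). The translocon and glycosylation list had 6 of 36, with 43 counts in all, among them Sec63 (20), Sec62 (10), Srp19 (5) and Sec11a (4). The COPI and COPII coats, which carry cargo between ER and Golgi, had 11 of 32, led by Arcn1 (48), Lman1 (42), Copa (16) and Mia3 (15). Cytosolic and mitochondrial chaperones had 22 of 48, led beside the Hsp90 genes by Dnajc21 (171), Pfdn4 (146) and Dnajb1 (69), while Hspa8, the constitutive cytosolic relative of Hspa5, had 1 count. Hsp90 co-chaperones had 4 of 23, Fkbp5 (57), Unc45a (20), Ahsa1 (15) and Stub1 (9). Among these 8 lists 17 genes were tested, the 6 described above included, and none was called in either direction by edgeR in any of the 9 comparisons.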

How the data were processed

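Ribosome-protected fragments were prepared from pooled eggs, zygotes and embryos with RNase digestion (100 units, 45 min), a 4 h HA pulldown and 22 PCR cycles, per the labels' protocols. The authors deposited estimated counts per gene, all whole numbers, for 15 libraries. The submitters' processing notes name GRCm38, deepTools 3.5.1, StringTie 2.1.4, STAR 2.7.6a and cutadapt. The sources used here do not say how multi-mapping reads were handled.

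Genes and lists were chosen with earlier results of these data known. Symbols were matched to RefSeq GRCm38.p6 (39101 by symbol, 164 by an older one, 16225 unmatched), which gave 21447 protein-coding genes, positions and promoters. Library totals of 93222 to 1201146 counts limit precision, and limits from 3 counts cover counting error only. edgeR 4.0.16 (R 4.3.3) with TMM factors and filterByExpr fitted 6 groups in a quasi-likelihood model over 495 genes, with Benjamini-Hochberg adjustment at 0.05. DESeq2 1.42.0, limma-voom (limma 3.58.1), other scalings, filters, a replicate block and leaving out each library were the alternatives. The fit was tested on simulated data: at a dispersion of 0.2, 98.0% of genes changed by 3 on the log2 scale were called, and 2.71% of unchanged genes. Simulated counts at the trended dispersion of these data gave the shares in the report.

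Expected counts were a gene's total times the library's share of all protein-coding counts. The genes named were the 7 mRNAs, up to 4 others per list by total count, the 2 genes with the highest Spearman correlation to each tested mRNA, Hsp90aa1 and Hspa8. Fold changes were printed where groups did not overlap in CPM or a gene was called. Features of the proteins were planned and not analysed here. Same-numbered Het and KO libraries did not deviate together, but so few libraries cannot show whether the numbers pair them, and the labels do not say.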

Additional observations from a re-analysis of the deposited data

How the results depend on the processing

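The 0 calls by edgeR in each of the 9 comparisons became, with DESeq2, 2 genes for KO against Het in M2 eggs, 2 in PN5 zygotes, 4 in early 2-cell embryos, 4 for PN5 zygotes against M2 eggs in Het and 1 in KO, and 40 and 13 for early 2-cell embryos against PN5 zygotes in Het and KO. Of the 6 mRNAs tested, DESeq2 called Canx, Acbd3 and Ktn1 in the comparison with 40 calls and Canx in that with 13. limma-voom called 11 genes for early 2-cell embryos against PN5 zygotes in Het. Without a low-count filter there were 3 calls there, 1 in KO, 1 between KO and Het early 2-cell embryos and 2 for the difference between the KO effects in early 2-cell embryos and PN5 zygotes. Genes with a mean of at least 50 counts gave 3 calls for early 2-cell embryos against PN5 zygotes in Het. Leaving out each library gave 0 to 1 calls between KO and Het early 2-cell embryos and for early 2-cell embryos against PN5 zygotes in Het, the 1 in both without early 2-cell Het replicate 2, and 0 in the other 7 comparisons, over the 495 genes of the full fit, a choice made after seeing the data. Where a group then held 1 library, it was assumed to vary like the others. The cause of these shifts was not tested.

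The replicate block gave 0 calls in all 9 comparisons and moved the log2 fold change of Ktn1 in KO, PN5 zygotes against M2 eggs, from -1.24 to -0.33. Deviations of same-numbered libraries had correlations of -0.15 in M2 eggs, -0.32 to 0.10 in PN5 zygotes and -0.04 to 0.03 in early 2-cell embryos. With so few libraries a group, these values cannot show whether the numbers pair the libraries. The crossed block in M2 eggs, added after seeing the data, gave 0 calls. With protein-coding counts as depth, the lowest library with Acbd3 had -12293 counts relative to the highest without it, so the ranges with and without it overlapped and the separation seen by total was lost. Few counts, above all in early 2-cell embryos, limit every comparison.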
